A study of Mus musculus with 6 samples.

Results

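The Wnt genes described here were 41 components and readouts of the Wnt pathway, most of them secreted or membrane-linked, taken as a list of gene symbols. They were 15 Wnt ligands, 8 frizzled receptors, 6 antagonists that bind the ligands, 4 genes grouped as co-receptor antagonists (3 Dickkopf proteins and Kremen1), 3 R-spondins, 3 feedback inhibitors and 2 TCF transcription factors. All 41 were measured, on 81 probe sets, among 18194 genes that the mouse array names by a single symbol. For a gene with several probe sets, the brightest one on average was used.

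Total RNA came from whole mouse embryos at embryonic day 9.5, 3 of genotype RFC1-/- and 3 of genotype RFC1+/+, as 1 littermate pair from each of 3 litters. RFC1, also called Slc19a1, encodes the reduced folate carrier, a plasma membrane transporter that brings folates into cells. The knockout was carried on the inbred SWV background, to which it had been moved from a C57BL/6J hybrid stock, and the dams were heterozygous. Every dam, and so every embryo in both groups, was exposed to folic acid at 25 mg/kg, injected under the skin each day. The RFC1-/- embryos were labelled as affected, with an open neural tube along the body axis (craniorachischisis) and a defect of the chorioallantoic membrane, and the RFC1+/+ embryos as normal, so that genotype and visible phenotype cannot be told apart. The paper reports that RFC1-/- embryos on this dose lag behind their wildtype littermates in development by mid-gestation. The part of any such delay in the differences below was not tested, and it cannot be told apart from genotype. The knockout was present in all tissues throughout development, and no embryo without added folic acid was analysed here.

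Wnt proteins are lipid-modified signals that bind a frizzled receptor and an LRP co-receptor. In the canonical branch this stabilises beta-catenin, which enters the nucleus and switches on target genes together with TCF and LEF factors. R-spondins strengthen the signal by keeping frizzleds at the cell surface, secreted frizzled-related proteins (Sfrp) bind Wnts outside the cell, and Dickkopf (Dkk) proteins such as Dkk1 act on the co-receptor. In the embryo at this stage Wnts are known for patterning the dorsal neural tube, for growth of the tail end of the body axis and for the somites, limb buds and neural crest.

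Of the 41 Wnt genes, 8 passed the threshold of an adjusted p under 0.05 (limma with the litter as a block, Benjamini-Hochberg over all 18194 genes). That was 19.5% of them, beside 5.32% of all genes tested. The R-spondins Rspo1 and Rspo2, the ligand antagonists Sfrp1 and Sfrp2 and the ligand Wnt9a were lower in the RFC1-/- embryos, 5 genes or 12.2%, beside 1.65% of all genes. The antagonists Dkk1, Dkk3 and Frzb were higher, 3 genes or 7.32%, beside 3.67% of all genes. The other 33 genes, all 8 frizzleds among them, did not pass. By limma, 16 of the 41 (39.0%) had an unadjusted p under 0.05, beside 18.4% of all genes tested.

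Values are on the log2 scale, so that 1 unit is a doubling, and every difference is RFC1-/- minus the RFC1+/+ littermate. The median difference over the 41 genes was -0.05, beside -0.01 over all genes tested, and 15 genes lay above 0 and 26 below. The median size of the difference, without its sign, was 0.19 for the Wnt genes and 0.11 for all genes. In 56.1% of the Wnt genes the littermates differed in the same direction in all 3 litters, beside 39.0% of all genes. The 2 groups did not overlap for 12 Wnt genes, or 29.3%, which is near the 26.2% of all genes for which they did not.

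**Figure D1:**
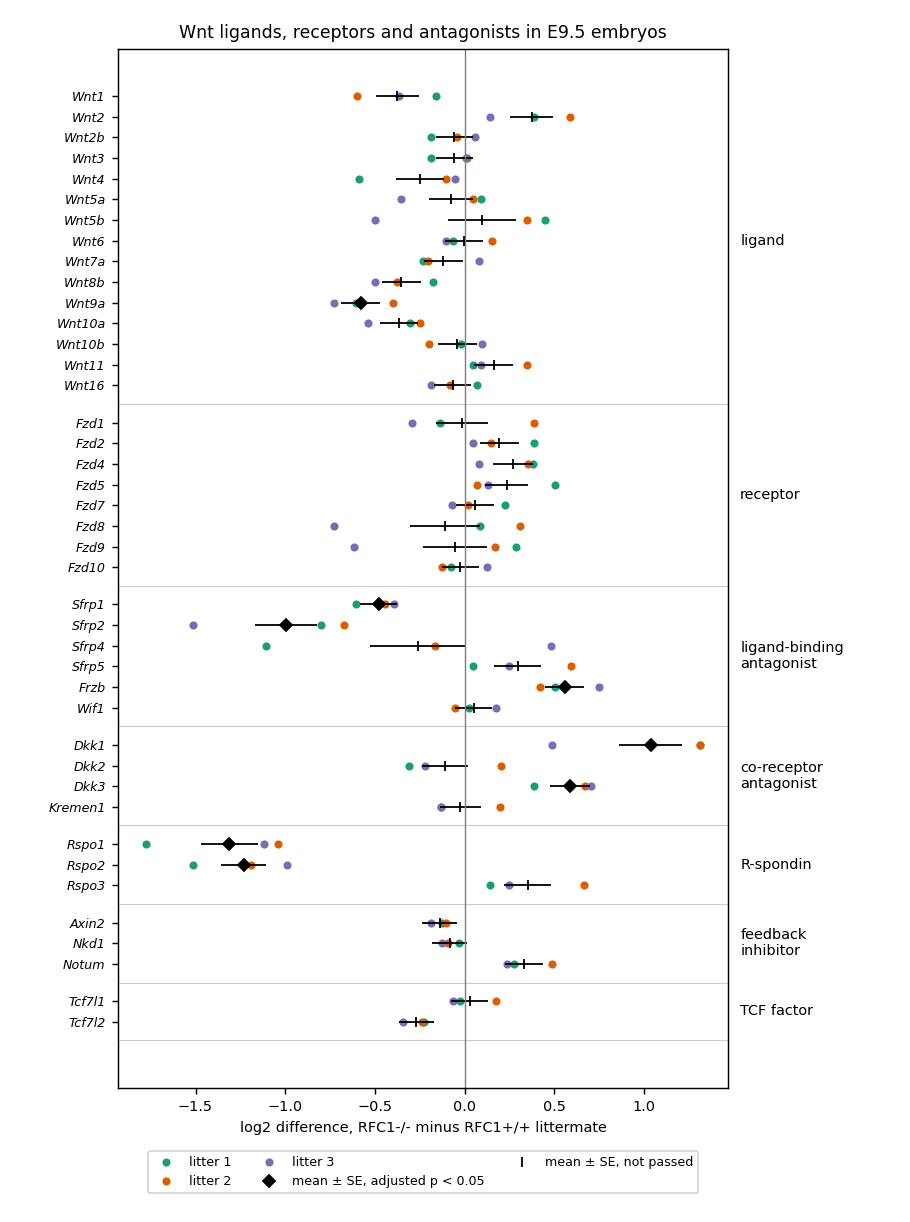
Log2 difference between each RFC1-/- embryo and its RFC1+/+ littermate for the 41 Wnt genes, arranged by role. Coloured points are the 3 litters, and the black diamond (passed) or tick (not passed) with its bar is the mean ± SE of the fit. Rspo1 and Rspo2 lie furthest to the left, at -1.31 and -1.23, and Dkk1 furthest to the right, at 1.04, while the frizzleds sit between -0.11 and 0.27.

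The R-spondins did not move together. Rspo1 and Rspo2 were the Wnt genes with the largest differences, and Rspo3 lay the other way without passing the test. R-spondins are secreted proteins that bind Lgr receptors and the ubiquitin ligases Znrf3 and Rnf43, which otherwise remove frizzleds from the membrane. Rspo1 is known from the roof plate of the neural tube, and Rspo2 is needed for limb and lung development.

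Rspo1 had log2 levels of 6.68, 6.51 and 6.43 in the RFC1+/+ group, given here and for the other genes in the order of litters 1 to 3, and of 4.91, 5.47 and 5.31 in the RFC1-/- group. Every RFC1-/- embryo lay below every RFC1+/+ embryo, and the mean difference of -1.31 ± 0.16 (SE, n = 3 pairs, adjusted p = 0.00961) was a 2.48-fold lower level. All 3 RFC1-/- levels lay under 5.4708, the median over all probe sets of the array. The mean of Rspo1 over all embryos, 5.88, lay above it. Rspo2 had levels of 8.11, 8.04 and 7.33 in the RFC1+/+ embryos and of 6.60, 6.84 and 6.34 in the RFC1-/- embryos. The RFC1+/+ embryo of litter 3 was the lowest of its group but still above every RFC1-/- embryo, and the mean difference was -1.23 ± 0.13 (SE, n = 3 pairs, adjusted p = 0.00671), 2.35-fold lower. Both genes are on the list of changed genes that the study chose from these same embryos, so that their direction here is not independent evidence. Both passed under each of the 11 alternative settings, including those that left out a litter. When the 2 probe sets of Rspo2 were averaged, the dim one included, its difference shrank to -0.58 (adjusted p = 0.0257).

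Rspo3, an R-spondin of the vasculature and placenta, had levels of 9.06, 8.18 and 9.05 in the RFC1+/+ embryos and of 9.20, 8.85 and 9.29 in the RFC1-/- embryos. The groups overlapped, since the RFC1-/- embryo of litter 2 lay below the RFC1+/+ embryos of litters 1 and 3, the RFC1+/+ embryo of litter 2 stood lowest of all, and the difference was 0.35 ± 0.13 (SE, n = 3 pairs, adjusted p = 0.204). Most markers of the dorsal neural tube and roof plate moved in the same direction as Rspo1 and Rspo2. Of 6 measured, 4 were lower in the RFC1-/- embryos and 0 higher, and the mean level of the 6 ranged from 7.48 to 7.62 in the RFC1+/+ group and from 6.37 to 6.91 in the RFC1-/- group. The roof plate factor Lmx1a did not pass and was in the dimmer range of the array in every embryo. Msx1 did not pass either and differed by -0.04, with litters on both sides of 0. The part of these tissues in the R-spondin differences was not tested, and in RNA from whole embryos fewer cells of a type and less RNA per cell cannot be told apart. Of the limb bud markers, 0 of 6 passed by limma or by the random-variance paired test. That test is named in the study's methods and also borrows the spread of other genes. By limma 2 of 6 had an unadjusted p under 0.05, Tbx4 (difference 2.36, adjusted p = 0.0604) and Hand2 (0.41, adjusted p = 0.148). Both were higher in the RFC1-/- embryos, opposite to Rspo2. Over the list 5 mean differences lay above 0 and 1 below.

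**Figure D2:**
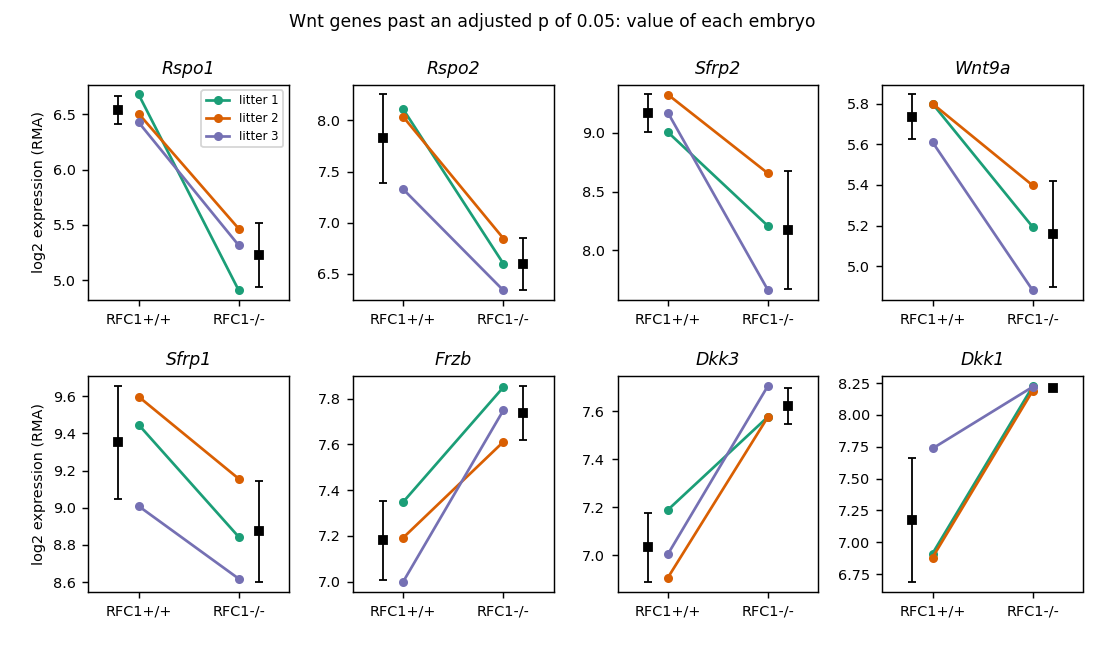
Log2 level of the 8 Wnt genes past the threshold in each of the 6 embryos, with a coloured line joining the littermates of a litter and a black square with its bar for the mean ± SD of a group (n = 3); each panel has its own axis. The lines fall in all 3 litters for Rspo1, Rspo2, Sfrp2, Wnt9a and Sfrp1 and rise in all 3 for Frzb, Dkk3 and Dkk1, and Sfrp1 is the gene whose 2 groups overlap.

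The Wnt ligands showed small differences, most of them below 0. Of 15 ligands, 12 had a mean difference below 0 and 3 above, and Wnt9a alone passed the test. Wnt9a, a ligand known from joint and cartilage formation, had levels of 5.80, 5.80 and 5.61 in the RFC1+/+ embryos and of 5.19, 5.397 and 4.88 in the RFC1-/- embryos. The groups did not overlap, and the difference was -0.58 ± 0.11 (SE, n = 3 pairs, adjusted p = 0.0320), 1.49-fold lower. The mean level of 5.45 lay just under 5.47, the median over all probe sets of the array, so that Wnt9a was among the dimmer genes. The second Wnt9a probe set, dimmer still, differed by 0.02. The call was lost without litter 1 (adjusted p = 0.175), with the variation filter of the study's methods, which drops probe sets that stay within 1.5-fold of their median on every array (0.242), and when the gene's probe sets were averaged (-0.28, adjusted p = 0.203).

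The 4 other ligands with the largest differences were Wnt1, Wnt2, Wnt10a and Wnt8b, and none passed. Wnt1, made by the dorsal midline of the midbrain and spinal cord and needed for the midbrain, had levels of 6.22, 6.61 and 6.36 in the RFC1+/+ embryos and of 6.06, 6.01 and 5.99 in the RFC1-/- embryos, a difference of -0.38 ± 0.12 (SE, n = 3 pairs, adjusted p = 0.139). All RFC1-/- embryos lay below all RFC1+/+ embryos, by 0.16, 0.60 and 0.36 within the 3 litters. Wnt10a had levels of 5.84, 5.74 and 6.06 against 5.54, 5.49 and 5.52, a difference of -0.36 (adjusted p = 0.117). Wnt8b, a ligand of the forebrain midline, was dim at 4.48, 4.62 and 4.51 against 4.30, 4.24 and 4.01, a difference of -0.35 (adjusted p = 0.132). For both the groups stood apart by a small margin. Wnt2, expressed in the allantois, heart and placental vessels, had levels of 7.64, 8.0 and 8.18 in the RFC1+/+ embryos and of 8.03, 8.59 and 8.33 in the RFC1-/- embryos, a difference of 0.37 (adjusted p = 0.142). It was higher in every RFC1-/- embryo than in its littermate, although the groups overlapped.

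The other 10 ligands (Wnt2b, Wnt3, Wnt4, Wnt5a, Wnt5b, Wnt6, Wnt7a, Wnt10b, Wnt11 and Wnt16) had mean differences from -0.25 for Wnt4 to 0.16 for Wnt11. Wnt5a, which drives the planar polarity branch and outgrowth of the body axis, had a difference of -0.07 with a 95% interval from -0.36 to 0.22, so that a change of the size seen for Rspo1 lay outside the interval. The litters disagreed for Wnt5b, at 0.45, 0.35 and -0.50. Wnt2b, Wnt3 and Wnt16 were dim, with mean levels under the array's median.

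The frizzleds, the receptors that bind Wnts, gave the narrowest range of any role with more than 3 genes. Of 8, 0 passed by limma or by the random-variance test, and 1, Fzd4, had an unadjusted p under 0.05. Their mean differences ran from -0.11 for Fzd8 to 0.27 for Fzd4, and the 95% intervals of all 8 lay within -0.57 and 0.53. Fzd4, a receptor of the vasculature, had levels of 7.65, 7.85 and 8.08 in the RFC1+/+ embryos and of 8.03, 8.20 and 8.16 in the RFC1-/- embryos (difference 0.27, adjusted p = 0.250). Fzd7 differed by 0.06 and Fzd2 by 0.19, with 95% intervals up to 0.31 and 0.46. On the probe sets used, the litters agreed in direction for 3 of the 8 frizzleds. Fzd8 and Fzd9 were among those for which they did not. Fzd8 differed by 0.08, 0.31 and -0.73 in litters 1, 2 and 3, and Fzd9 by 0.29, 0.17 and -0.62, so that litter 3 lay opposite to the other 2 for both. A dimmer Fzd8 probe set was lower in every litter, by -0.25 on average. Its unadjusted p by limma was 0.0375, and its adjusted p over all probe sets was 0.288.

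The antagonists that bind Wnt ligands split in direction, with Sfrp1 and Sfrp2 lower, Frzb higher and Sfrp4, Sfrp5 and Wif1 not passing. All except Wif1 are secreted frizzled-related proteins, which carry a frizzled-like domain without a membrane anchor. Sfrp2, which is expressed in the neural tube and in mesenchyme, had levels of 9.01, 9.33 and 9.17 in the RFC1+/+ embryos and of 8.21, 8.66 and 7.66 in the RFC1-/- embryos. The groups did not overlap, the RFC1-/- embryo of litter 3 stood lowest, and the difference was -0.995 ± 0.17 (SE, n = 3 pairs, adjusted p = 0.0251), 1.99-fold lower. Sfrp2 passed under all 11 alternatives.

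Sfrp1 had levels of 9.45, 9.60 and 9.01 in the RFC1+/+ embryos and of 8.84, 9.16 and 8.62 in the RFC1-/- embryos. It was lower in each RFC1-/- embryo than in its own littermate. On this probe set the groups overlapped because the levels of both genotypes were lowest in litter 3. The paired difference was -0.48 ± 0.10 (SE, n = 3 pairs, adjusted p = 0.0463), 1.39-fold lower. The call lay at the edge of the threshold, and 7 of the 11 alternatives ended it. Without the pairing of littermates the adjusted p was 0.176, with the random-variance test of the study's methods 0.050, just above the threshold, without litter 1 0.323 and without litter 2 0.124. It was also lost with a second quantile normalization (0.0503), with arrays centred on their median (0.0544) and with the variation filter, which read another probe set (-0.74, adjusted p = 0.135).

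Frzb, also called Sfrp3 and known from skeletal precursors, had levels of 7.35, 7.19 and 7.0 in the RFC1+/+ embryos and of 7.85, 7.61 and 7.75 in the RFC1-/- embryos. Every RFC1-/- embryo exceeded every RFC1+/+ embryo, and the difference was 0.56 ± 0.11 (SE, n = 3 pairs, adjusted p = 0.0369), 1.47-fold higher. The call was lost when any litter was left out (adjusted p = 0.16, 0.0657 and 0.0568 without litters 1, 2 and 3), with a second quantile normalization (0.0539) and with the mean of its probe sets (0.34, adjusted p = 0.0773). The variation filter dropped Frzb, which was not tested in that setting. Sfrp5, an antagonist of foregut endoderm, had levels of 6.82, 6.23 and 6.60 against 6.87, 6.82 and 6.84 (difference 0.30, adjusted p = 0.292). Sfrp4 varied most between litters of all 41 genes, with differences of -1.10, -0.17 and 0.48. Wif1 was dim and differed by 0.05.

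Markers of neural progenitors moved with Sfrp1 and Sfrp2. Of 7 measured, 6 were lower in the RFC1-/- embryos, and the mean level of the 7 ranged from 9.15 to 9.33 in the RFC1+/+ group and from 7.73 to 8.64 in the RFC1-/- group. The RFC1-/- embryo of litter 3, which had the lowest Sfrp2 level, also had the lowest mean of this list. Of 6 somite markers, 4 were lower, with list means of 7.83 to 8.04 against 7.10 to 7.44. Cardiac markers lay the other way, as Frzb did, with 4 of 6 higher and list means of 10.06 to 10.36 against 10.72 to 10.84. The part of these tissues in the antagonist differences was not tested.

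Of the Dickkopf proteins and Kremen1, Dkk1 and Dkk3 were higher and the other 2 did not pass. Dkk1, which is needed for head formation and binds LRP6, had levels of 6.91, 6.88 and 7.74 in the RFC1+/+ embryos and of 8.22, 8.19 and 8.22 in the RFC1-/- embryos. The RFC1-/- embryos were nearly level with each other (SD 0.018) and the RFC1+/+ embryos were spread (SD 0.49), with the RFC1+/+ embryo of litter 3 closest to the RFC1-/- group. The difference was 1.04 ± 0.18 (SE, n = 3 pairs, adjusted p = 0.0248), 2.05-fold higher, made up of 1.31, 1.31 and 0.48 in the 3 litters. The call was lost without litter 1 (adjusted p = 0.0906) or litter 2 (0.0656).

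Dkk3, a divergent member of the family that is not known to bind LRP6 as Dkk1 does, had levels of 7.19, 6.91 and 7.005 in the RFC1+/+ embryos and of 7.58, 7.58 and 7.71 in the RFC1-/- embryos. The groups did not overlap, and the difference was 0.59 ± 0.11 (SE, n = 3 pairs, adjusted p = 0.0317), 1.5-fold higher. It was lost without litter 1 (adjusted p = 0.080) or litter 2 (0.109). The variation filter dropped Dkk3, so that it was not tested in that setting. Dkk2 differed by -0.11 and Kremen1, a membrane receptor for Dkk proteins, by -0.02, with litters on both sides of 0 for each.

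Visceral endoderm markers were higher, as Dkk1, Dkk3 and Frzb were. Of 12 measured, 11 rose in the RFC1-/- embryos, with list means of 6.27 to 7.78 in the RFC1+/+ group and of 9.36 to 10.99 in the RFC1-/- group. The sizes did not all run in step over litters 1 to 3. The median difference of the markers was 2.89, 3.44 and 4.82. Dkk1 differed by 1.31, 1.31 and 0.48, Dkk3 by 0.39, 0.67 and 0.70 and Frzb by 0.50, 0.42 and 0.75. Albumin stayed in the dim range in all 6 embryos. Endothelial markers included 3 of 5 that rose, and trophoblast markers 1 of 4. All 6 primitive erythroid markers fell. According to the methods the extraembryonic membranes were taken off for genotyping, and the part of any remaining yolk sac in the Wnt gene differences was not tested.

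The feedback inhibitors, which beta-catenin signalling switches on and which then dampen it, did not pass, with 0 of 3 by limma and by the random-variance test and 1, Notum, at an unadjusted p under 0.05. Axin2, a widely used readout of canonical Wnt signalling, had levels of 9.49, 9.45 and 9.23 in the RFC1+/+ embryos and of 9.37, 9.34 and 9.04 in the RFC1-/- embryos. It was lower by 0.11 to 0.19 in each litter, less than the range within either group, and the difference of -0.14 had a 95% interval from -0.37 to 0.09 (adjusted p = 0.541). Nkd1, which binds Dishevelled, differed by -0.08 with an interval from -0.31 to 0.15. Notum, an enzyme that removes the lipid from Wnts, had levels of 5.61, 5.62 and 5.86 in the RFC1+/+ embryos and of 5.89, 6.11 and 6.10 in the RFC1-/- embryos. The groups stood apart by a narrow margin, with a difference of 0.33 ± 0.10 (SE, n = 3 pairs, adjusted p = 0.140).

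Of the 2 TCF factors, which carry beta-catenin to its target genes, 0 passed by limma or by the random-variance test. Tcf7l1, mainly a repressor, differed by 0.03 with an interval from -0.22 to 0.27. Tcf7l2, whose unadjusted p was under 0.05, had levels of 7.32, 7.59 and 8.01 in the RFC1+/+ embryos and of 7.10, 7.36 and 7.67 in the RFC1-/- embryos (difference -0.27, adjusted p = 0.199). The levels of both genotypes were lowest in litter 1 and highest in litter 3, so that the groups overlapped although each RFC1-/- embryo was lower than its littermate.

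Many of the genes could be read on more than 1 probe set. Of the 41 genes, 15 had 1 probe set and 26 had more. In a fit over all 45101 probe sets, 7 of the 81 Wnt probe sets passed (8.64%, beside 2.75% of all probe sets), 3 higher and 4 lower. They were the main probe sets of Rspo1, Rspo2, Sfrp2, Wnt9a, Frzb, Dkk3 and Dkk1. That of Sfrp1 had an adjusted p of 0.0602 in this fit. No gene passed on another probe set while its main one did not.

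The 5 Sfrp1 probe sets all lay below 0, from -0.17 to -0.74. The next brightest had levels of 9.06, 9.31 and 9.69 in the RFC1+/+ embryos and of 8.38, 9.05 and 8.40 in the RFC1-/- embryos. There the groups just stood apart, and the RFC1+/+ embryo of litter 3 was the highest, unlike on the main probe set. The second Dkk1 probe set had levels of 5.23, 5.45 and 6.66 in the RFC1+/+ embryos and of 6.79, 6.78 and 6.90 in the RFC1-/- embryos, a difference of 1.04 (adjusted p = 0.0774). As on the first, the RFC1+/+ embryo of litter 3 was the highest of its group and nearest to the RFC1-/- group. The second Dkk3 probe set differed by 0.47 (adjusted p = 0.0745). The second probe sets of Rspo2 and Frzb were dim and differed by 0.07 and 0.13. Rspo1 and Sfrp2 had a single probe set each. Among the genes that did not pass, Wnt7a, a ligand of the neural tube, differed by -0.12 on its main probe set and by -0.61 on a dimmer one (adjusted p = 0.0848 over all probe sets), so that its probe sets disagreed in size.

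**Figure D3:**
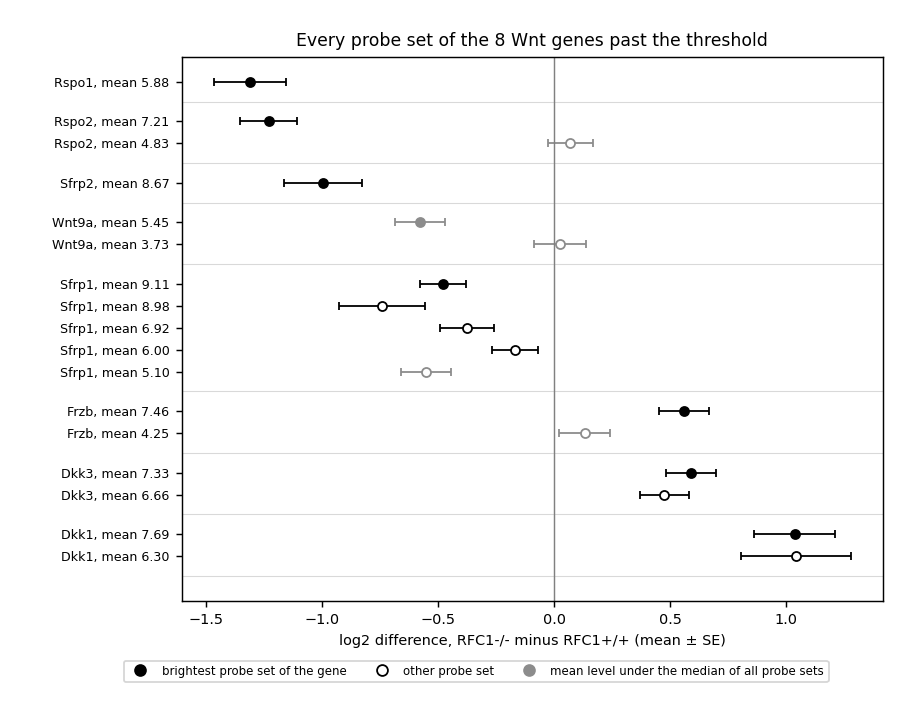
Mean log2 difference ± SE (n = 3 pairs) of every probe set of the 8 Wnt genes past the threshold, with the mean level of the probe set beside the gene's name. Filled points are the probe set used for the gene, open points the others, and grey points those with a mean level under the median of all probe sets. All 5 Sfrp1 probe sets and both for Dkk1 and Dkk3 lie on the same side of 0, while the second probe sets of Rspo2 and Wnt9a, with mean levels of 4.83 and 3.73, lie near 0.

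The promoters of the genes that moved were read for CTTTGA on either strand, a form of the TCF and LEF core motif. TCAAAG is its reverse complement. RefSeq sequences on GRCm38.p6 were at hand for 30 of the 41 genes, and the 250 bases before the annotated start were searched. Of the 8 genes past the threshold, Rspo1, Sfrp2, Wnt9a, Frzb and Dkk1 had an entry. Shown here, to set windows of both directions side by side, are the 2 of these 5 with the largest fall and the 2 that rose, in lower case with the motif in capitals, each 5′ to 3′ on the strand of the gene and ending at the base before the start. They are Rspo1 on the plus strand of chr4:124986180-124986429, Sfrp2 on the plus strand of chr3:83766071-83766320, Dkk1 on the minus strand of chr19:30549497-30549746 and Frzb on the minus strand of chr2:80447397-80447646.
Rspo1: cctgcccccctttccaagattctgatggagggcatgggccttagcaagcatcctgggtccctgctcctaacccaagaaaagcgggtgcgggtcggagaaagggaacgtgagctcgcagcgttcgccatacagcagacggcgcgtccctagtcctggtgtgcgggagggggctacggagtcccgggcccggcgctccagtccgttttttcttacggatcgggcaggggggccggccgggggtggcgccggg
Sfrp2: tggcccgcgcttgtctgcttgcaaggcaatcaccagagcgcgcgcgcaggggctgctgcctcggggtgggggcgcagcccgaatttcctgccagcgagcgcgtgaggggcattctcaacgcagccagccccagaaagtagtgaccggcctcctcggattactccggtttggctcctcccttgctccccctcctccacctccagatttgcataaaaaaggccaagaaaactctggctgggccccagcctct
Dkk1: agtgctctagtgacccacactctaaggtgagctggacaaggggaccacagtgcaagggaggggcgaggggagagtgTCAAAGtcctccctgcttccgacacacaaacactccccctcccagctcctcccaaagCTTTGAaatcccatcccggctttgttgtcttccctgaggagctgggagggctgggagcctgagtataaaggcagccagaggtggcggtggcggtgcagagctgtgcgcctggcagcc
Frzb: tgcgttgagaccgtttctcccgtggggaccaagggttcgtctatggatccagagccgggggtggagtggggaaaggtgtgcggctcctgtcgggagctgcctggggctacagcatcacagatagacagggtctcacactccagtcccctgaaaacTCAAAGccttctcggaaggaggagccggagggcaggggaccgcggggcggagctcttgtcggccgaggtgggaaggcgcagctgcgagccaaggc

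The Dkk1 window held these letters at 2 places, which began 174 and 117 bases before the start, and the Frzb window at 1, which began 95 bases before it. The windows of Rspo1, Sfrp2 and Wnt9a did not hold these letters. Neither did that of Axin2. This form was in 5 of 34 windows of the Wnt genes (14.7%) and in 4544 of 32851 windows of all promoters (13.8%), a nearly equal share. The Wnt gene windows were richer in G and C than most, with a median of 66.8% beside 52.4% over all windows. A match is a run of letters and not a site shown to be bound. Other forms of the motif, such as the ctttgt in the Dkk1 window, were neither searched nor marked.

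Further genes of the pathway, 64 measured of 67 listed, mostly did not pass. By limma 1 was higher and 1 lower, together 3.12%, beside 5.32% of all genes tested, and 16 (25.0%) had an unadjusted p under 0.05, beside 18.4% of all genes. The median difference was -0.06, with 24 genes above 0 and 40 below. Draxin, a secreted protein of the dorsal neural tube that guides axons and binds LRP6, was the one that fell. It had levels of 6.70, 6.83 and 6.44 in the RFC1+/+ embryos and of 5.91, 5.93 and 5.403 in the RFC1-/- embryos, a difference of -0.91 ± 0.10 (SE, n = 3 pairs, adjusted p = 0.00846). Its groups did not overlap, and the variation filter alone among 11 alternatives ended the call (adjusted p = 0.0609). With its 2 probe sets averaged the difference was -0.47 (adjusted p = 0.0359). Vangl1, a membrane protein of the planar cell polarity pathway, rose from 7.87, 7.94 and 7.85 to 8.26, 8.53 and 8.45, a difference of 0.52 ± 0.10 (SE, n = 3 pairs, adjusted p = 0.0363). That call was lost without litter 1 (0.128), litter 2 (0.127) or litter 3 (0.0540) and with the variation filter (0.201).

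In the planar cell polarity group of 9, which is needed for neural tube closure, Vangl2 and Celsr2 lay opposite to Vangl1. Vangl2 had levels of 9.29, 9.94 and 9.42 in the RFC1+/+ embryos and of 9.19, 8.86 and 8.87 in the RFC1-/- embryos (difference -0.58, adjusted p = 0.141), with non-overlapping groups. Celsr2 differed by -0.62 (adjusted p = 0.0656) and Prickle1 by 0.49 (adjusted p = 0.0696), each in the same direction in all 3 litters. Among 11 cytoplasmic components 0 passed by limma or by the random-variance test, with 2 at an unadjusted p under 0.05, and beta-catenin itself (Ctnnb1) differed by 0.08 with an interval from -0.15 to 0.31. Of 8 nuclear effectors 0 passed by either test and 0 had an unadjusted p under 0.05, and Lef1 differed by -0.20 (adjusted p = 0.368). Of 11 other receptors and co-receptors 0 passed by either test, with 2 at an unadjusted p under 0.05, and of 6 other ligands and secretion factors 0 passed, with 1.

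The 9 Wnt response genes of the early embryo gave 0 calls by limma and by the random-variance test, with 3 at an unadjusted p under 0.05, and the widest spread. Cdx4, a caudal factor of the tail end, had levels of 6.72, 4.11 and 8.28 in the RFC1+/+ embryos and of 7.90, 7.46 and 7.43 in the RFC1-/- embryos. Cdx2 had levels of 7.41, 6.64 and 8.89 against 8.81, 8.78 and 8.54. In both the RFC1+/+ embryos ran from below to above the RFC1-/- group, lowest in litter 2 and highest in litter 3, and the RFC1-/- embryos were close together. Sp5, a direct target of beta-catenin, had levels of 6.86, 7.08 and 7.53 against 7.66, 7.85 and 7.51 (difference 0.52, adjusted p = 0.168). Sp8 lay the other way, at 8.21, 8.13 and 8.34 against 7.85, 7.83 and 7.36 (difference -0.55, adjusted p = 0.0992). Its groups did not overlap. Cdx2, Sp5 and Sp8 were the 3 with an unadjusted p under 0.05 by limma. Of the 9 genes, 5 had a mean difference above 0 and 4 below.

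**Figure D4:**
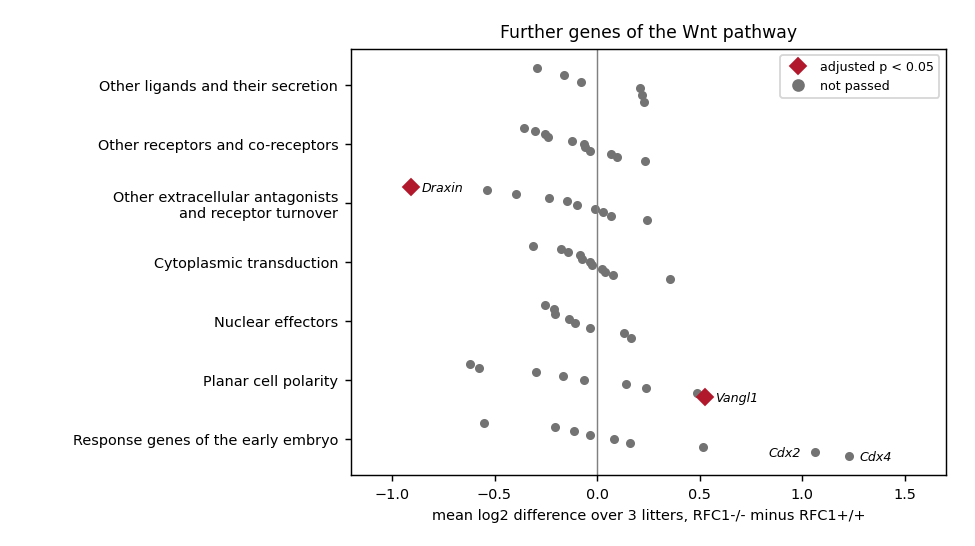
Mean log2 difference over the 3 litters for 64 further genes of the Wnt pathway, 1 point a gene, arranged by subgroup. Red diamonds passed the threshold and grey points did not. Draxin at -0.91 and Vangl1 at 0.52 are the 2 that passed, and Cdx2 and Cdx4 have the largest differences above 0 without passing.

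The targeted gene, read only on the brightest of its 3 probe sets, gave no check of the genotype labels. Slc19a1 was at 9.11, 9.10 and 8.89 in the RFC1+/+ embryos and at 9.97, 10.10 and 9.84 in the RFC1-/- embryos, a difference of 0.93 (adjusted p = 0.00701). The sources used here do not say which part of the gene was removed, so that this probe set may lie outside it. The arrays had medians of 5.43 to 5.49 and correlated with each other at 0.984 to 0.996, and their number limits the precision.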

How the data were processed

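RNA from 6 embryos was labelled by 2-cycle amplification and hybridised to Affymetrix mouse whole-genome arrays. The authors made the deposited log2 values with RMA (background correction, quantile normalization, median polish), and these were used as deposited. Of 45101 probe sets, 34958 carried 1 gene symbol, 932 several and 9211 none in the platform annotation; 18194 genes were read on the probe set with the highest mean. Through RefSeq identifiers, found for 34754 probe sets, 0 symbols were updated. RFC1-/- and RFC1+/+ embryos were compared with limma 3.58.1 in R 4.3.3, with the litter as a block since littermates are paired by design, over all genes, with Benjamini-Hochberg adjustment and a threshold of 0.05. Deviations of littermates from their group means correlated at 0.01, -0.03 and -0.20. Dim genes had a mean level under 5.47, the median of all probe sets. Intervals are at 95%.

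Given in full were the members past the threshold, any past it on another probe set alone, and the 6 largest differences that did not pass. The members, the further pathway genes and the cell type markers (58 measured) were chosen with earlier results of these data known. Kremen2, Tcf7 and T were not named by a single symbol on the array, nor were Prl3d1, Prl2c2, Gcm1 and Gdf7. Alternatives were no replicate block, an intensity trend, a second quantile normalization, centred arrays, probe sets averaged per gene, dim genes left out, the 1.5-fold variation filter and the random-variance paired test of the methods, and each litter left out. The fits were also run on simulated data in which littermates shared a litter effect, and no result given here rests on that run. Tables and figures used Python 3.11.15, numpy 2.4.6, pandas 2.3.3 and matplotlib 3.10.9.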

Additional observations from a re-analysis of the deposited data

How the results depend on the processing

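With 3 littermate pairs, small differences could not be separated from the spread between litters. Rspo1, Rspo2 and Sfrp2 passed under all 11 alternatives. Direction was followed for the members given in full, Draxin and Vangl1, and none of these changed direction where tested. For the other genes named here it was not followed, and the litters of some, such as Fzd8, Fzd9 and Sfrp4, disagreed in direction. Of the 41 Wnt genes, 3 were higher and 5 lower, and leaving out 1 litter gave 0 to 2 higher (0 without litter 1 or litter 2) and 3 to 5 lower (3 without litter 1). Without the pairing of littermates (no replicate block) the counts were 3 higher and 4 lower, Sfrp1 being the call that was lost. The variation filter kept 13 Wnt genes, chosen by their spread, with 1 higher, 3 lower and a median difference of -0.54, and it moved the median of all genes to 0.19; no count over its genes is support. The median of the 41 genes, -0.05, ran from -0.078 to -0.0049 with a litter left out, the latter without litter 3. Leaving out the dim genes kept 35.

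Of all Wnt probe sets, 7 passed, 6 without the block, 4 after the variation filter and 0 to 7 with a litter left out (0 without litter 1, 3 without litter 2). Of the further pathway genes, 1 was higher, and 2 were after a second quantile normalization, 2 after the variation filter and 0 to 4 with a litter left out (0 without litter 1 or 2, 4 without litter 3). In that list 1 was lower, and 2 were with the mean of each gene's probe sets and 1 to 2 with a litter left out (2 without litter 2); its median was -0.53 after the variation filter, which kept 13 genes. Apart from the filters, which test fewer genes, and the omitted litters, which leave fewer samples, the cause was not tested.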

Other observations

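The RFC1+/+ embryos differed from each other in genes of the tail end of the body. The RFC1+/+ embryo of litter 2 had the lowest levels of all 6 embryos for Cdx4 (4.11), Cdx2 (6.64) and the hindlimb factor Tbx4 (4.06), beside 7.11 for Tbx4 in the RFC1+/+ embryo of litter 3. Hoxd9, a gene of the posterior body, was also lowest there, at 6.90, with the other 5 embryos between 7.62 and 8.18. Rspo3 was lowest in the same embryo, at 8.18, and Dkk1 too, at 6.88, there level with the RFC1+/+ embryo of litter 1 at 6.91. Draxin went the other way, with its highest level, 6.83, in that embryo. These genes were chosen after their values were seen, and no test was made of them.

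Several Wnt genes lie next to each other in the mouse genome (RefSeq annotation). Wnt9a, which fell, lies beside Wnt3a, which did not pass. Wnt1 and Wnt10b on chromosome 15 differed by -0.38 and -0.04, and Wnt10a and Wnt6 on chromosome 1 by -0.36 and 0.00, none of the 4 past the threshold. Wnt9b and Wnt3 differed by -0.08 and -0.06, and Dact1 and Daam1 by 0.36 and 0.24, none of them past it either.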
